A study of Homo sapiens with 2 samples.

Results

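A set of 10 genes of the protein folding machinery of the endoplasmic reticulum was followed in SUM-159, an established human line of triple-negative breast cancer. The genes were HSPA5, HSP90B1, DNAJB9, DNAJC3, SDF2L1, HYOU1, PDIA4, PDIA6, XBP1 and HERPUD1, chosen by name as genes of the unfolded protein response, and all 10 were found among the 60880 rows of the deposited table through their Ensembl identifiers. One RNA sequencing library came from cells labelled PD-L1L2-SE deficient, meaning that a super-enhancer held in the title to drive PD-L1 and PD-L2 had been disrupted, and 1 library came from cells given the sgVector control. The sources used here do not say whether either population was 1 clone or a pool, nor do they give guide sequences or a treatment. Each group is a single library, so the differences have no check by replicates and no p-value was computed.

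The endoplasmic reticulum folds secreted and membrane proteins with the help of chaperones and of enzymes that form disulfide bonds. When unfolded proteins build up, the membrane sensors IRE1, ATF6 and PERK start the unfolded protein response. IRE1 splices the XBP1 mRNA so that it encodes an active transcription factor, ATF6 is cut in the Golgi to release another, and PERK slows translation and favours ATF4. XBP1 and ATF6 bind stress elements in the promoters of chaperone genes, and cells that secrete much protein carry these chaperones at high levels. A count per gene cannot separate spliced from unspliced XBP1, so the activity of the pathway itself was not measured.

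The stress elements are printed here because most of these promoters hold one. Genes of the unfolded protein response are known as a group partly through these elements, so finding them in the set is a description and not independent of how the genes were chosen. Promoter windows from 250 bases before to 50 bases after each start were taken from RefSeq (GRCh38.p14), and all 10 genes had at least 1 entry. The endoplasmic reticulum stress element, ERSE, was searched as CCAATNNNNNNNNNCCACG and its variant ERSE-II as ATTGGNCCACG, both on either strand. Of the 10 genes 7 held one or the other in at least 1 window. Counted over windows, of which a gene can have several, an ERSE match was held by 0.0769% of 35116 and an ERSE-II match by 0.0541%. The sequences run 5′ to 3′ on the strand of the gene, with the element in capitals, and an element on the opposite strand appears as its reverse complement. Only matches that lay before the start of transcription, together with the 10 bases printed on each side, were kept for printing.
HSPA5, ERSE, chr9:125241381-125241419, minus strand: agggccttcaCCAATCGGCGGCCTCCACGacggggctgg
HSP90B1, ERSE, chr12:103930206-103930244, plus strand: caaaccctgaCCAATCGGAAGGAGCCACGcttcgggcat
HSP90B1, ERSE on the opposite strand, chr12:103930311-103930349, plus strand: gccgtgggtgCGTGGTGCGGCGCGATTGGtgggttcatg
PDIA6, ERSE, chr2:10812843-10812881, minus strand: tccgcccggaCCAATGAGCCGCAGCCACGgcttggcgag
XBP1, ERSE, chr22:28800593-28800631, minus strand: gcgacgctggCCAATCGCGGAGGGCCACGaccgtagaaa
HERPUD1, ERSE-II, chr16:56932015-56932045, plus strand: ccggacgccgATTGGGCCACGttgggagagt
SDF2L1, ERSE-II on the opposite strand, chr22:21642104-21642134, plus strand: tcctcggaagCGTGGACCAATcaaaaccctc
HYOU1, ERSE-II on the opposite strand, chr11:119057370-119057400, minus strand: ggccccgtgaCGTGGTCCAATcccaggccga
HYOU1, ERSE-II on the opposite strand, chr11:119057264-119057294, minus strand: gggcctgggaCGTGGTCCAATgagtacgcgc

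Among the printed elements the closest to a start was that of XBP1, 52 to 34 bases before it, and that of HSPA5 lay 66 to 48 bases before it. DNAJB9, DNAJC3 and PDIA4 held neither arrangement of letters in these windows. A match describes the letters and is no measured binding site. The third element searched, the unfolded protein response element UPRE (TGACGTGG), was found in HYOU1 alone among the 10 genes, 188 to 181 bases before the start, where it overlaps the distal ERSE-II. UPRE matches were held by 0.729% of all windows.

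The table holds RPKM, reads scaled by gene length and by the reads on genes, and its steps gave back whole reads. The deficient library held 16381546 of them and the sgVector library 16206675. Ratios below are ratios of read shares with 95% Clopper-Pearson intervals, which cover counting error only. Counts of genes use log2 of the RPKM values after adding 0.1, deficient over sgVector, and cover the 13552 genes whose mean reached 1 RPKM, called past the floor below. Of the genes that the element is named for, CD274 stood at 0.698 against 7.16 RPKM and PDCD1LG2 at 1.19 against 5.32 RPKM. The mesenchymal genes VIM, CD44, AXL and CAV1 stood between 49.6 and 746 RPKM, and the luminal and epithelial genes ESR1, PGR, CDH1 and EPCAM at no more than 0.0264 RPKM in either library. GATA3, a further luminal marker, passed the floor, at 0.853 against 1.38 RPKM from 48 and 77 reads. VIM was 1.91-fold lower in the deficient library (1.89 to 1.94). Of 4 leukocyte markers 0 passed the floor, with a summed level of 0.0966 against 0.116 RPKM, and PGR and CD3E were at 0 in both libraries. A value of 0 allows up to 3 reads, which is 0.183 reads per 1000000 for the deficient library and 0.185 for sgVector.

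Both libraries carried the 10 genes at nearly the same overall level, and the individual genes differed by little. Their reads summed to 44006 with the element disrupted and 43476 in the control, or 0.269% and 0.268% of all reads, a ratio of 1.001 (0.988 to 1.015). None of the 10 was 2-fold higher or 2-fold lower, where 3.03% of all genes past the floor were 2-fold higher and 4.69% 2-fold lower. The median log2 ratio was 0.02 over the 10 genes and -0.05 over all genes past the floor, with 5 of the 10 above 0 and 5 below. Of all genes past the floor 55.5% were below 0, the background for such counts in the lists that follow. At 1.5-fold, 1 gene, DNAJC3, was higher (background 8.29%) and 0 were lower (12.6%). All 10 genes passed a mean of 5 RPKM, and among the 7549 genes past that level 1.52% were 2-fold higher, 2.01% 2-fold lower, 5.63% 1.5-fold higher and 8.15% 1.5-fold lower. In bulk RNA, fewer cells that express a gene and less of its RNA per cell cannot be told apart.

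**Figure D1:**
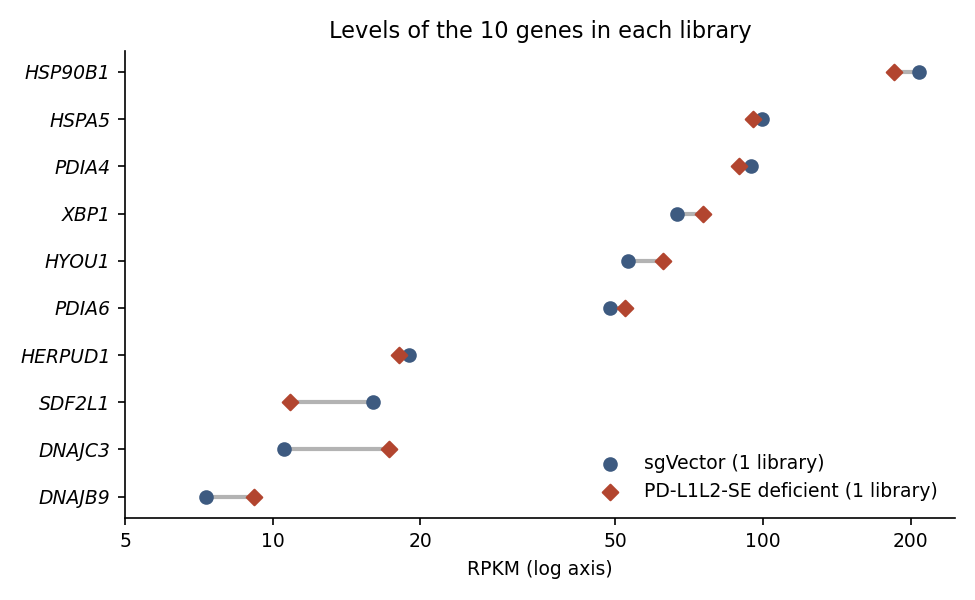
RPKM of each of the 10 genes on a log axis, with 1 point per library joined by a line. HSP90B1 was highest in both libraries and DNAJB9 the lowest, and the longest lines belong to DNAJC3 (17.3 against 10.6 RPKM) and SDF2L1 (10.8 against 16.1 RPKM).

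Small differences were nonetheless wider than counting error for most genes, because the genes are read deeply. The counting interval lay wholly above 1 for 5 genes (background 25.9% of all genes past the floor), wholly below 1 for 4 (32.6%) and spanned 1 for HERPUD1. Among all genes past a mean of 5 RPKM it lay wholly above for 30.2% and wholly below for 39.6%, so intervals that leave out 1 are common at this depth. With centring, TPM, TMM or upper-quartile scaling 2 genes in place of 4 lay wholly below, and with a GC and length correction 1 did. Of the 10 genes 8 lay within 1.25-fold on the log2 scale, against 62.1% of genes past 5 RPKM, with DNAJB9 at the edge of that band. Outside it stood DNAJC3 and SDF2L1.

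**Figure D2:**
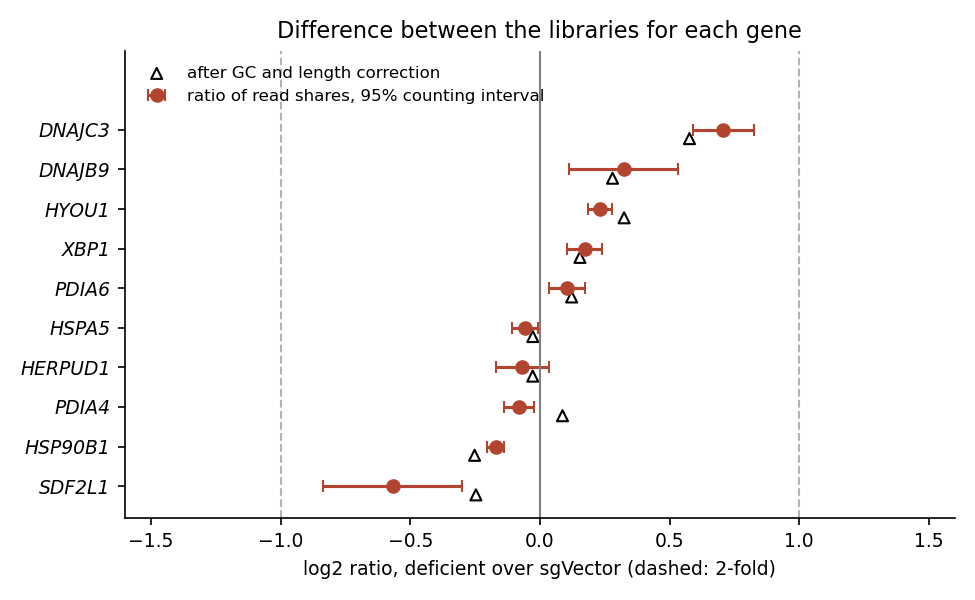
Log2 ratio of read shares, deficient over sgVector, for each of the 10 genes, with 95% counting intervals and with triangles for the log2 ratio after a correction for GC content and gene length. All intervals lie inside the dashed lines at 2-fold, and the triangles of SDF2L1, PDIA4, DNAJC3, HYOU1 and HSP90B1 fall outside their intervals.

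The master chaperones were the most abundant of the set and stood close to equal. HSPA5 (ENSG00000044574) encodes BiP, the Hsp70 chaperone that binds unfolded chains and holds the sensors inactive. It lies on chromosome 9 from 127997132 to 128003609 in hg19 and had 95.5 RPKM from 6112 reads with the element disrupted, against 99.4 RPKM from 6294 reads. The ratio was 0.961 (0.927 to 0.995), and its direction turned with trimmed mean of M values (TMM) scaling, to a log2 ratio of 0.018. HSP90B1 (ENSG00000166598, chromosome 12 from 104323885 to 104347423) encodes GRP94, the Hsp90 chaperone of the compartment, and had 185 against 208 RPKM, from 14227 and 15840 reads. It was 1.13-fold lower in the deficient library (1.10 to 1.15) and lower under all 8 alternatives tried, between -0.25 and -0.09 in log2. By RPKM it ranked 213 among all genes of the deficient library and 188 among those of the control. HSP90B1 carried enough of the reads that the sum of the other 9 genes was 1.07-fold higher in the deficient library (1.05 to 1.08).

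The cofactors that drive BiP's cycle stood on both sides. HYOU1 (ENSG00000149428, chromosome 11 from 118914900 to 118927913) encodes GRP170, which exchanges the nucleotide bound to BiP. It had 62.4 RPKM from 7868 reads against 53.2 RPKM from 6627 reads and was 1.17-fold higher in the deficient library (1.14 to 1.21). SIL1, the other nucleotide exchange factor of BiP, had 7.85 against 10.1 RPKM and was 1.29-fold lower (1.14 to 1.44). Set against HSPA5, which removes any effect of library scaling, HYOU1 stood at 0.654 RPKM per RPKM of HSPA5 in deficient cells against 0.535 in control cells, a ratio 1.22-fold higher (1.16 to 1.28). The same ratio for SIL1 was 0.810 times that of the control (0.717 to 0.915). In the uncorrected reads the exchange factors thus lay on opposite sides of HSPA5, each beyond counting error. A correction for GC content and length brought the log2 ratio of SIL1 from -0.36 to -0.16. HSPA5 then stood at -0.03 and HYOU1 at 0.32. No interval was computed for the ratios to HSPA5 after this correction.

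Among the J-domain partners, which hand substrates to BiP and trigger its ATPase, both members were higher. Other listed J-domain genes stood on both sides, with log2 ratios of 0.43 for SEC63, 0.11 for DNAJC10, -0.008 for DNAJB11 and -0.54 for DNAJC1. DNAJC3 (ENSG00000102580, chromosome 13 from 96329393 to 96447243) encodes p58IPK, which also restrains PERK. It had 17.3 RPKM from 1581 reads with the element disrupted and 10.6 RPKM from 958 reads without that, a ratio of 1.63 (1.51 to 1.77), and 5.95% of genes past the floor had a higher log2 ratio. DNAJB9 (ENSG00000128590, chromosome 7 from 108210012 to 108215294) encodes ERdj4, which brings BiP back to IRE1. It had 9.17 RPKM from 426 reads against 7.33 RPKM from 337 reads, a ratio of 1.25 (1.08 to 1.45). DNAJB9 shares 183 exon bases with THAP5 and 99 with PNPLA8, which lie on the other strand and had 606 against 523 and 420 against 558 reads. The strand setting of the counting is not stated, so reads of these genes and of DNAJB9 could not be told apart there.

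SDF2L1 stood lowest of the 10. It (ENSG00000128228, chromosome 22 from 21996550 to 21998587) encodes a partner of the BiP cochaperone DNAJB11 that helps keep substrates from aggregating. It had 10.8 RPKM in the deficient cells, from 195 reads, and 16.1 RPKM in the control, from 286 reads, 1.48-fold lower (1.23 to 1.79). DNAJB11 itself had 10.9 RPKM in both libraries, a ratio of 0.994 (0.911 to 1.08), so SDF2L1 stood at 0.995 RPKM per RPKM of DNAJB11 in the deficient cells against 1.47 in the control. SDF2L1 has the fewest reads of the 10 and the highest GC content, 65.5%, and a correction for GC content and length brought its log2 ratio from -0.56 to -0.25.

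The disulfide isomerases stood close to equal as well. PDIA4 (ENSG00000155660, chromosome 7 from 148700154 to 148725733), known as ERp72, had 89.5 RPKM from 4807 reads against 94.7 RPKM from 5027 reads. The ratio was 0.946 (0.909 to 0.984), and its direction turned after the GC and length correction, to a log2 ratio of 0.087. PDIA6 (ENSG00000143870, chromosome 2 from 10923517 to 10978103), known as P5, had 52.4 RPKM from 3522 reads against 48.8 RPKM from 3241 reads, 1.08-fold higher (1.02 to 1.13). The overlapping gene ATP6V1C2 shares 25.2% of the PDIA6 length and had 20 and 42 reads. How reads on the shared bases were counted is not stated, so the effect of the overlap on PDIA6 is not known.

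Total XBP1 mRNA was slightly higher and HERPUD1 did not differ beyond counting error. XBP1 (ENSG00000100219, chromosome 22 from 29190543 to 29196585) had 75.3 RPKM from 3736 reads in the deficient cells and 66.8 RPKM from 3278 reads in the control, a ratio of 1.13 (1.08 to 1.18). HERPUD1 (ENSG00000051108, chromosome 16 from 56965960 to 56978775) encodes Herp, a scaffold of the ubiquitin ligase complex that clears misfolded proteins. It had 18.1 RPKM from 1532 reads against 19.0 RPKM from 1588 reads, a ratio of 0.954 (0.889 to 1.02), and the sign of its log2 ratio turned with TMM scaling (0.01). The processed pseudogenes XBP1P1 and HSPA5P1 had no more than 5 reads in either library.

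**Figure D3:**
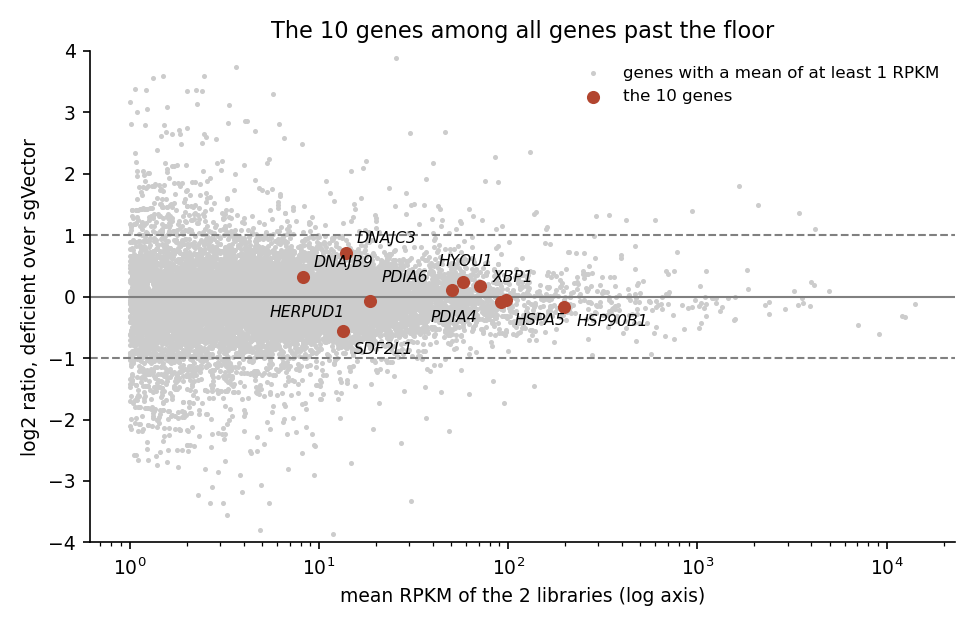
Log2 ratio, deficient over sgVector, against the mean RPKM of both libraries on a log axis, for all genes past the floor (grey) and the 10 genes (red). Dashed lines mark 2-fold, 57 genes lie outside the plotted range, and the 10 genes sit in the band around 0 at moderate to high levels.

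Position and base composition moved with the outer values. The median log2 ratio over the other coding genes past the floor was 0.46 on chromosome 13 (179 genes), home of DNAJC3 at 0.70, and all 4 coding neighbours of DNAJC3 within 1 Mb were above 0, with a median of 0.51. UGGT2, the next gene along, stood at 0.61 and HS6ST3 at 0.85. On chromosome 22 the median was -0.30 for the 241 other coding genes around SDF2L1, which stood at -0.56, while XBP1 on the same chromosome stood at 0.17. XBP1 was the gene of the 10 that lay farthest from the median of its chromosome, 0.48 above it, and DNAJB9 lay 0.40 above that of chromosome 7. HSPA5 and PDIA4 lay on theirs, within 0.014 and 0.0013. Coding neighbours within 1 Mb could differ from the chromosome. Their median was 0.19 for DNAJB9, 0.06 for PDIA6, -0.08 for HERPUD1, -0.14 for HSPA5 and -0.20 for XBP1. It was -0.22 for HSP90B1, -0.23 for PDIA4, -0.27 for HYOU1 (itself at 0.23) and -0.29 for SDF2L1. Chromosome position had no part in the GC and length correction, and its share in the DNAJC3 and SDF2L1 values was not tested.

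**Figure D4:**
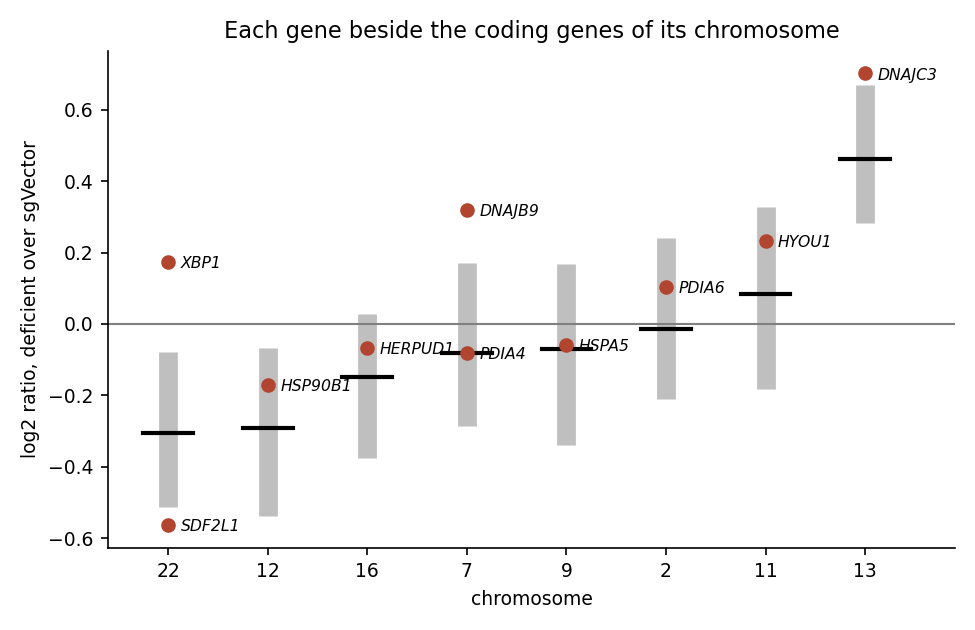
Log2 ratio of each of the 10 genes (red) beside the coding genes past the floor on the same chromosome, whose median is a black line and whose range between the quartiles is a grey bar. DNAJC3 at 0.70 lies just above the upper quartile of chromosome 13, and XBP1 and SDF2L1 lie on opposite sides of the chromosome 22 bar.

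GC content of the longest transcript ran from 39.9% in DNAJC3 to 65.5% in SDF2L1, and these are also the highest and lowest ratios. Over the 10 genes Pearson's r between GC content and log2 ratio was -0.67, but it was -0.07 over the 8 genes without DNAJC3 and SDF2L1, so the relation rests on those 2. All 10 values come from the same pair of libraries. Over 10576 coding genes r was -0.26. Corrected for GC content and length, DNAJC3 stood at 0.58, just under 1.5-fold, and HYOU1 at 0.32.

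The elements printed above did not sort the genes by their ratio. The 7 genes with an ERSE or ERSE-II ran from -0.56 for SDF2L1 to 0.23 for HYOU1, with a median of -0.06. The highest of the 10, DNAJC3 and DNAJB9, are among the 3 without one, and the third, PDIA4, stood at -0.08. SDF2L1 and HERPUD1, each with a single printed ERSE-II, stood at -0.56 and -0.07, and HYOU1, with a printed pair, at 0.23. For ERSE the order was the other way. HSP90B1, with a printed pair, stood at -0.17, and HSPA5, PDIA6 and XBP1, with a single one each, at -0.06, 0.10 and 0.17.

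Around these genes, the sensors, proteases and transducers of the response (the sensor list) had all 8 members past the floor. Of these 4 were above 0 and 4 below, with none past 1.5-fold and a median log2 ratio of 0.03. ERN1, which encodes IRE1, had 4.43 against 3.56 RPKM and was 1.24-fold higher (1.12 to 1.38), and ATF6 had 16.7 against 13.1 RPKM and was 1.27-fold higher (1.19 to 1.35). ATF6B, a close relative, stood at 0.19 in log2. EIF2AK3, which encodes PERK, had 5.57 against 6.25 RPKM, a ratio of 0.892 whose interval spanned 1 (0.789 to 1.01). Of the Golgi proteases that cut ATF6, MBTPS2 was 1.45-fold higher (1.31 to 1.61) and MBTPS1 1.10-fold lower (1.04 to 1.16). RTCB, the ligase that joins the spliced XBP1 exons, had 15.9 against 23.7 RPKM and was 1.49-fold lower (1.35 to 1.63). TRAF2, an adaptor of IRE1, stood at -0.39.

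Other folding factors also spread to both sides. Of 21 further chaperones and cofactors, all past the floor, 12 were above 0 and 9 below, with 0 past 2-fold and a median of 0.05. CANX, which encodes the lectin chaperone calnexin, was the farthest, at 214 against 118 RPKM and 1.81-fold higher (1.77 to 1.85). UGGT2, which marks misfolded glycoproteins for another round with calnexin, stood at 0.61 and SEC63 at 0.43, while CNPY2, FKBP10 and DNAJC1 stood at -0.59, -0.57 and -0.54. FKBP10 is a collagen folding factor. Of 19 further disulfide enzymes 16 passed the floor, 10 above 0 and 6 below, with a median of 0.07. PDIA5 had 8.38 against 15.3 RPKM and was 1.83-fold lower (1.65 to 2.03), the farthest of all disulfide enzymes listed. ERP29 and the oxidase gene ERO1A stood at -0.55 and -0.37, and TXNDC12, TMX1 and TXNDC5 at 0.50, 0.33 and 0.31.

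Degradation genes, which act beside HERPUD1, had 21 of 22 members past the floor, 12 above 0 and 9 below, with a median of 0.14 and 0 past 2-fold. The median was 0.03 after the GC and length correction and 0.07 with a floor of 5 RPKM or none. SEL1L, the adaptor of the HERPUD1 ligase complex, was 1.38-fold higher (1.29 to 1.48), and SYVN1, its ligase HRD1, was 1.26-fold lower (1.18 to 1.34). RNF139 and FAF2 stood at 0.61 and 0.39, and UFD1 and NPLOC4, which pull substrates out of the membrane with the ATPase VCP, at -0.35 each.

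Translocation and export genes had a median log2 ratio of -0.27, against -0.05 over all genes past the floor. Of 23 members, all past the floor, 8 were above 0 and 15 below, where 55.5% of all genes past the floor were below. SEC11C, SPCS3 and TRAM1 stood highest, at 0.57, 0.55 and 0.35, and KDELR3, SSR4 and ARFGAP3 lowest, at -1.30, -0.61 and -0.61. KDELR3 was the 1 gene of the list past 2-fold, with 452 reads (14.3 RPKM) against 1103 reads (35.3 RPKM), 2.47-fold lower (2.21 to 2.76). The KDEL receptors retrieve BiP, GRP94 and other soluble chaperones that leave the compartment. KDELR1 and KDELR2 were lower as well, at 188 against 218 RPKM and 97.2 against 132 RPKM, 1.16-fold (1.12 to 1.20) and 1.35-fold (1.31 to 1.40), although KDELR1 came close to 0 after the GC and length correction, at -0.02. The 3 receptors summed to 299 against 385 RPKM. The 10 genes, which summed to 616 against 624 RPKM, are not a list of receptor cargo, since XBP1 encodes a transcription factor. KDELR3 lies on chromosome 22 and holds a UPRE on the opposite strand, 46 to 39 bases before its start. SSR4, SSR3 and SEC62 of the same list also held a UPRE match in their windows and stood at -0.61, -0.08 and 0.06. Any link between the element and the ratio was not tested.
KDELR3, UPRE on the opposite strand, chr22:38468040-38468067, plus strand: gccgccctggCCACGTCAccgcccggcc

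**Figure D5:**
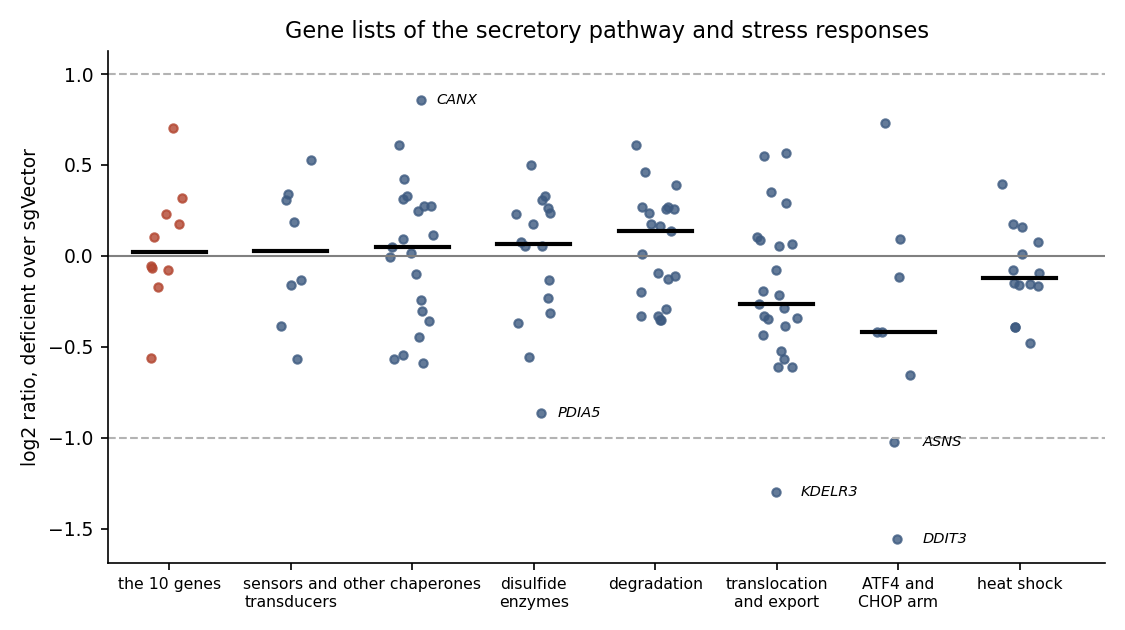
Log2 ratio, deficient over sgVector, of each gene past the floor in the 10 genes (red) and in 7 related lists (blue), with 1 point per gene, a black line at each median and dashed lines at 2-fold. The medians run from -0.42 in the ATF4 and CHOP arm to 0.14 in the degradation list before the correction, and KDELR3, DDIT3 and ASNS lie past 2-fold.

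The lowest median of the related lists was that of the PERK branch. Of 10 genes of the ATF4 and CHOP arm 8 passed the floor, 6 of them below 0, and 2 were at least 2-fold lower, DDIT3 at 6.21 against 18.5 RPKM and ASNS at 12.6 against 25.7 RPKM. Over all genes past the floor 55.5% were below 0 and 4.69% at least 2-fold lower. The median was -0.42, which the GC and length correction brought to -0.19. The summed level of the arm went the other way, at 444 against 398 RPKM, with CEBPB at 262 against 158 RPKM. ATF4 itself had 87.1 against 116 RPKM and was 1.34-fold lower (1.28 to 1.40). TRIB3 and ATF3 stood at -0.66 and -0.12, PPP1R15A at 0.10 and CEBPB at 0.73. DDIT3 encodes CHOP, a factor of prolonged stress, and ASNS asparagine synthetase, an ATF4 target. DDIT3 lies on chromosome 12 and ATF4 on chromosome 22, whose coding genes past the floor had median log2 ratios of -0.290 and -0.305. ASNS lies on chromosome 7, where the median was -0.081. The share of position in these values was not tested. Chaperones outside the compartment, the 14 cytosolic and mitochondrial heat shock genes, had 5 above 0 and 9 below, with 0 past 1.5-fold and a median of -0.12, which the correction brought to -0.0069. HSPA1A, HSP90AA1 and HSPA1B stood at -0.48, -0.39 and -0.39, the near-identical HSPA1A and HSPA1B being uncertain, and BAG3, DNAJA1 and HSPB1 at 0.40, 0.17 and 0.16.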

How the data were processed

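Poly(A) RNA of SUM-159 cells was sequenced in 2 libraries, 1 per group. The authors deposited RPKM per gene, 1 column per library, with gene lengths and exon coordinates per the file headers. The submitters' processing notes name Subread, featureCounts 1.6.4, GRCh37 and hg19. For the aligner settings, annotation release and strand setting nothing is stated in the sources used here.

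RPKM times length gave whole reads for 100% of values above 0 (within 1e-06 of the read number). Of 60880 rows 56858 (93.4%) matched GENCODE release 29 for symbols, types and GC content. Rows of the Y copies of pseudoautosomal genes (41) were dropped. Log2 ratios used a pseudocount of 0.1 RPKM, which understates differences of low genes. Without molecular identifiers, PCR copies count as reads, so the intervals and the limits at 0 reads hold counting error alone.

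One listed marker is not reported here. The members and lists were chosen with earlier results of these data known. Named were all members, all genes of the sensor list, and in each other list the 3 highest, the 3 lowest and any gene past 2-fold. SIL1, DNAJB11, DNAJC10, ATF4, KDELR1, KDELR2, SSR3, SEC62 and HS6ST3 were added after their values were seen. Alternatives were pseudocounts of 1 and 0.01, centring, TPM, TMM, upper-quartile scaling, removal of mitochondrial genes, lowess correction (share 0.3) on GC content and length, other floors and the removal of single members. Steps were tested on simulated data. Tools were Python 3.11.15 with scipy 1.17.1, pandas 2.3.3, matplotlib 3.10.9, statsmodels 0.14.6 and numpy 2.4.6.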

Additional observations from a re-analysis of the deposited data

How the results depend on the processing

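Of 80 values of single members under 8 alternatives 65 stayed inside the counting interval, 13 left it in the same direction and 2 left it with the sign turned, HSPA5 with TMM (0.018) and PDIA4 with the GC and length correction (0.087). The sign of HERPUD1 also turned with TMM (0.0084), inside its interval, and the other 7 members kept their sign. The median of the members went from 0.02 to 0.10 with that correction and to -0.058 without DNAJC3. The number at 1.5-fold higher went from 1 to 0 with the correction, and 1 member (SDF2L1) was 1.5-fold lower without mitochondrial genes. No member passed 2-fold under any of the 8. Members with the interval wholly below 1 numbered 2, in place of 4, with centring, TPM, TMM or upper-quartile scaling and 1 with the correction, against 5 or 6 wholly above, an alternative chosen after seeing the data. The log2 ratio of the summed reads, 0.0020, was 0.078 with TMM, -0.021 without mitochondrial genes and 0.092 without HSP90B1. The correction brought the export list to -0.19, the ATF4 and CHOP arm to -0.19 and the heat shock list to -0.0069. It brought the degradation list to 0.031, no longer the highest median of the 7 lists. A floor of 5 RPKM brought the sensor list to -0.13. The scalings differ by construction in the shift they apply to all genes, and the other causes were not tested. No paired analysis was possible because each group has 1 library. Reads limit SDF2L1 and DNAJB9 most.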

Other observations

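Outside the 10 genes, 23 genes past the floor held an ERSE or ERSE-II in their promoter windows, 10 above 0 and 13 below, with a median log2 ratio of -0.15 and 1 at least 2-fold lower, CNKSR1 at -1.62. Of all genes past the floor 55.5% were below 0, with 3.03% past 2-fold on the higher side and 4.69% on the lower. Folding genes among the 23 stood at 0.86 for CANX, 0.31 for CALR, the partner of calnexin in the lumen, and 0.01 for CRELD2. The oxidase gene ERO1B, also among the 23, stood at 0.05. FICD, which modifies BiP with AMP, stood at -0.15 and SERP1, which stabilizes membrane proteins at the translocon, at 0.07. The 108 genes past the floor with a UPRE had a median of -0.12, with 43 above 0, 65 below, 1 past 2-fold on the higher side and 5 on the lower. These genes were described after the values were seen.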
